A study of Mus musculus with 6 samples.

Results

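The pan-endothelial surface and secreted genes are a set of 10 genes that endothelial cells of most vessels make: Tspan7, Emcn, Icam2, Clec14a, Egfl7, Cd34, Mmrn2, Ecscr, S1pr1 and Cav1. They were taken by gene symbol from a deposited table of 24951 genes, all 10 were found, and all 10 passed the filter on low counts that left 14934 tested genes. RNA came from lungs of mouse pups at postnatal day 5, and cells were captured on magnetic beads that carried an antibody to CD31, the product of Pecam1. The 3 control pups were Smad4 f/f without Cre, which the genotype label calls wildtype, and the 3 mutant pups were Smad4 f/f;Cdh5-CreERT2, labelled Smad4 iECKO mutant. Both groups therefore carried floxed Smad4 alleles, and no group had Cre with intact Smad4. Cdh5-CreERT2 is a tamoxifen-inducible Cre recombinase driven by the promoter of the endothelial cadherin gene Cdh5, and the labels give neither the dose nor the day of tamoxifen. The labels describe the libraries as independent biological samples, in a sentence that names HHTf/f and HHTiECKO mice and not Smad4.

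Endothelial cells line every blood vessel, and their surface carries receptors, adhesion molecules and a coat of sialomucins, proteins with dense sugar side chains that face the blood. Genes of this kind are often read as a measure of how much endothelium a sample holds, because other cells make little of most of them. Some are shared: Cd34 is also made by blood progenitors and fibroblasts, and Cav1 by alveolar type 1 cells and fibroblasts. Smad4 is the SMAD protein that the BMP and TGF-beta branches share, and both branches act on endothelial cells.

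Reads assigned to genes numbered 14093564 to 21113926 in control libraries and 16041786 to 20172318 in mutant libraries. Levels are given as CPM, counts scaled to a fixed total of assigned reads after TMM adjustment of library sizes, and the 3 values of a group always follow the order of its replicates 1, 2 and 3. Smad4 stood at 188, 177 and 181 CPM in the controls and at 88.8, 72.9 and 94.2 CPM in the mutants, so the targeted transcript went with the labels. Pecam1, whose product the beads bind, stood at 1571, 1478 and 1661 CPM in the controls and 1706, 1744 and 1707 CPM in the mutants (log2 fold change 0.13, 95% interval -0.04 to 0.30, edgeR quasi-likelihood test, adjusted p = 0.502). Counts behind the pan-endothelial values ran from 2351, for Mmrn2 in control replicate 2, to 23963, for Cav1 in control replicate 1.

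As a set, these 10 pan-endothelial genes stood at nearly the same level in mutant and control libraries, and 1 of them, Tspan7, was lower in the mutants. Summed over the 10 genes, the level was 4939, 4675 and 5118 CPM in the controls and 4847, 4563 and 4717 CPM in the mutants. The groups overlapped, with control replicate 3 highest and mutant replicate 2 lowest. The sum of 26 other pan-endothelial genes, given below, was lower in every mutant library than in every control. Calcrl carried much of that difference, and 12 of the 26 had a log2 fold change above 0. The median log2 fold change, mutant over control, was -0.01 over the 10 genes and -0.002 over all tested genes. In bulk RNA, fewer cells of a type and less RNA per cell cannot be told apart.

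At an adjusted p under 0.05 (edgeR quasi-likelihood test, Benjamini-Hochberg adjustment over all tested genes), 1 of the 10 genes fell, 0 rose and 9 did not pass. Over all tested genes 488 were called, which is 3.27%, with 1.93% higher and 1.34% lower, and a single call among 10 genes is too few to set apart from those shares. Mutant and control values were fully separate in 4 of the 10, with 2 higher (Cd34 and Mmrn2) and 2 lower (Tspan7 and Cav1). The values of 20.6% of all tested genes did not overlap either, 11.6% higher and 9.04% lower. An unadjusted p under 0.05 was reached by 5 of the 10, against 14% of tested genes. None of the 10 log2 fold changes was above 0.5 in size. For the 9 genes that did not pass, the lowest limit of a 95% interval was 0.690-fold of the control level (Clec14a). The highest limit was 1.49-fold (Mmrn2). Each interval is for 1 gene and not adjusted for the number of genes, so these limits do not give a joint range.

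**Figure D1:**
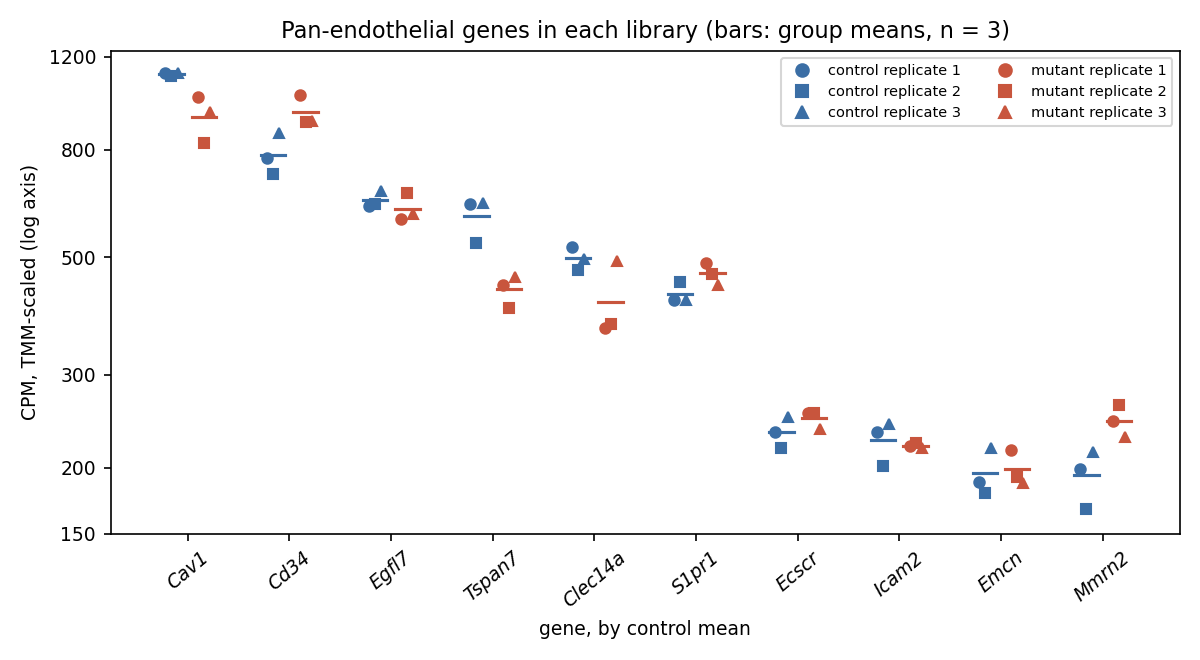
The vertical axis gives TMM-scaled CPM on a log axis for each of the 10 pan-endothelial genes in 3 control (blue) and 3 mutant (red) libraries, with symbols for replicates and bars for group means. The mutant symbols of Tspan7, at 401 to 459.8 CPM, sit below all control symbols, at 533 to 635 CPM, while those of Emcn, Icam2, Egfl7, Ecscr, S1pr1 and Clec14a overlap the controls.

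Tspan7 encodes a membrane protein of the tetraspanin family, proteins that group other surface proteins into membrane domains. The gene (ENSMUSG00000058254.12) lies on the plus strand of chromosome X of GRCm38, from 10485158 to 10596605, and no exon of another annotated gene overlaps its exons. Its level was 632, 533 and 635 CPM in the controls and 443, 401 and 459.8 CPM in the mutants. The highest mutant library was below the lowest control library. Group means were 599.9 ± 58.1 CPM in controls and 435 ± 30.1 CPM in mutants (SD, n = 3 each), 1.38-fold lower. That is a log2 fold change of -0.46 (SE 0.10, 95% interval -0.68 to -0.25, edgeR, adjusted p = 0.0293).

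The fall of Tspan7 kept its direction in each of the 14 other fits, with log2 fold changes of -0.54 to -0.41 and adjusted p of 0.00219 to 0.162. Its call was kept in the 8 other fits with all 6 libraries and in 1 of the 6 fits with a library removed, the one without control replicate 2 (adjusted p = 0.0268). The adjusted p was 0.0693 without control replicate 1, 0.102 without control replicate 3, 0.0828 without mutant replicate 1, 0.162 without mutant replicate 2 and 0.0531 without mutant replicate 3. Tspan7 is X-linked, and pups of both sexes were used. By Xist and the Y-linked gene Ddx3y, replicate 1 was male and replicates 2 and 3 were female in both groups. Tspan7 stood at 632 CPM in the male control and 443 CPM in the male mutant. That is 1 library against 1, and its direction follows from all mutants lying below all controls. With sex as a covariate the log2 fold change was -0.46 (adjusted p = 0.0410).

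**Figure D2:**
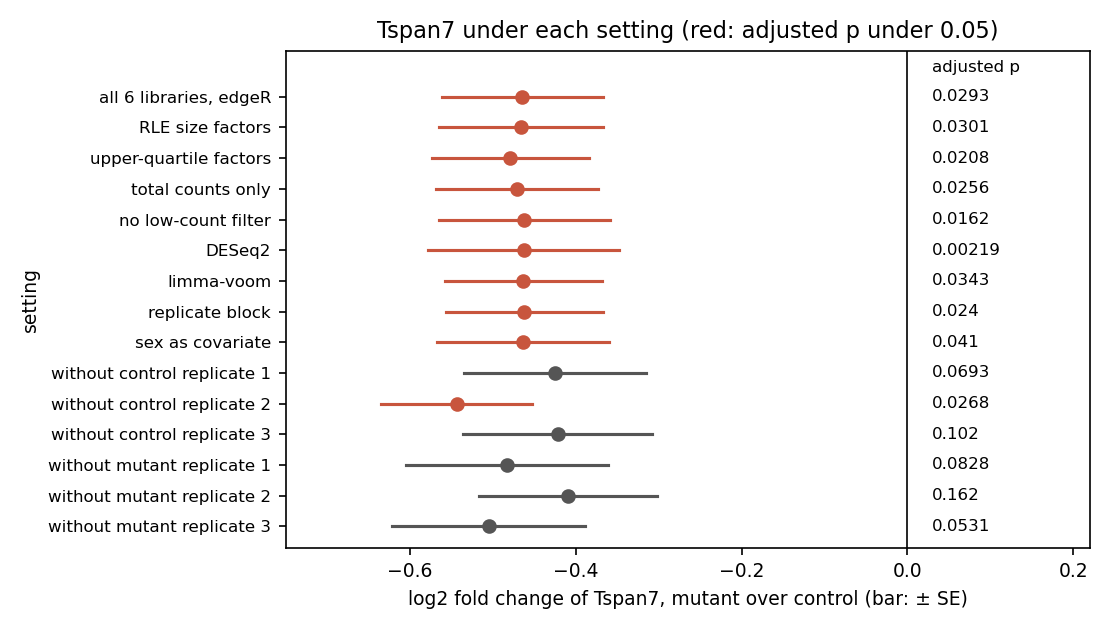
The horizontal axis gives the log2 fold change of Tspan7, mutant over control, with bars of 1 SE, for edgeR with all 6 libraries and for each other setting, and the adjusted p stands at the right. All points lie below 0, from -0.54 to -0.41, and 5 of the 6 settings without a library are grey because the adjusted p was above 0.05.

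Promoter sequences are shown for Tspan7, the gene that fell, beside Clec14a, Cd34 and Emcn, the other members with a single start in the table, whose log2 fold changes were -0.27, 0.27 and 0.02. RefSeq's promoter table (GRCm38.p6) held 6 of the 10 members. Each line gives the 250 bases upstream of the start, 5′ to 3′ on the gene's strand, with matches in capitals to GGAAG, the core of many sites of ETS factors, and to CAGAC, a core that SMAD proteins bind, on either strand. GGCGCC, to which SMAD proteins of the BMP branch are known to bind, was also searched on both strands.
Tspan7 (chrX:10484866-10485115, plus strand): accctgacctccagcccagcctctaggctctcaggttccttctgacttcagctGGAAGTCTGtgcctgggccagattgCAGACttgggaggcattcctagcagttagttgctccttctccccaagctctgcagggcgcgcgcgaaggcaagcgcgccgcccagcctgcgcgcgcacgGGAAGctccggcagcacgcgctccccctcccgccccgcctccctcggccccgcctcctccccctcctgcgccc
Clec14a (chr12:58269259-58269508, minus strand): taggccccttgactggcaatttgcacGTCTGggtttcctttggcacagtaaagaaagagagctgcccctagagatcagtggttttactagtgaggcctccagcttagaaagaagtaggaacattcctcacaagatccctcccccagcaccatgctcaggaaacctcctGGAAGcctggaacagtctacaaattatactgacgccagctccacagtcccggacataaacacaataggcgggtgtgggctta
Cd34 (chr1:194938571-194938820, plus strand): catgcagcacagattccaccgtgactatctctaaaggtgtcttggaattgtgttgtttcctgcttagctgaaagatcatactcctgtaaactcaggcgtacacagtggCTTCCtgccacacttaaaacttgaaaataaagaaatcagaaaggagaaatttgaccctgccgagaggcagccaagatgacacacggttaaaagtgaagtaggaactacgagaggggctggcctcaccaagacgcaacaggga
Emcn (chr3:137340828-137341077, plus strand): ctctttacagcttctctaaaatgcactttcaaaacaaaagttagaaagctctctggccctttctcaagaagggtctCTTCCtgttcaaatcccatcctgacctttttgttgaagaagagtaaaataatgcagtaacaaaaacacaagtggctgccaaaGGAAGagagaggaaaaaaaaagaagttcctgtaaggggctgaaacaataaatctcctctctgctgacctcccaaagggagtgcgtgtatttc
The Tspan7 window held 2 matches to the SMAD core, from 193 to 189 and from 172 to 168 bases upstream, and 2 to the ETS core, of which the one from 197 to 193 bases upstream shares a base with a SMAD core. Clec14a held 1 match to each, Cd34 held 1 to the ETS core and 0 to the SMAD core, and Emcn held 2 to the ETS core and 0 to the SMAD core. The GC-rich motif of the BMP branch had 0 matches in the 4 windows. Egfl7 and Cav1, with 3 and 2 RefSeq starts, are not printed. For Egfl7 (log2 fold change -0.05) the windows from 26580833 and 26583615 held 0 SMAD cores, and that from 26586386 held 2. For Cav1 (log2 fold change -0.27) the window from 17306085 held 0 and that from 17307390 held 2. A relation of these matches to the fold changes was not tested. Short motifs are common: of 32851 promoter windows of the same length 64.1% held the ETS core, 42.2% the SMAD core and 9.59% the GC-rich motif. A match is a run of letters and no evidence of binding. Distances are counted from the RefSeq start. For Tspan7 the GENCODE M21 gene starts downstream of it, at 10485158. Of its GENCODE transcripts 0 held the last bases of the promoter entry, against 1 for Clec14a, 1 for Cd34 and 2 for Emcn.

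Other tetraspanin genes were spread on both sides of 0. Apart from Tspan7, 23 were tested and 0 were called in either direction (edgeR; the median log2 fold change was 0.01). Tspan6, a close relative of Tspan7 and also X-linked, stood at 69.0, 56.1 and 77.1 CPM in the controls and 95.2, 83.2 and 92.4 CPM in the mutants (log2 fold change 0.42, adjusted p = 0.111). Its mutant libraries were all above its controls, the reverse of Tspan7. Tspan15 had a log2 fold change of 0.38 (adjusted p = 0.106), and passed only in the fit without control replicate 1 (0.0454). Tspan8 and Tspan12, named after their values were seen, lay below all controls in every mutant, as Tspan7 did. Their log2 fold changes were -0.38 and -0.28 (edgeR adjusted p = 0.176 and 0.278). Of the 23 genes 12 had a log2 fold change above 0.

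Some markers of endothelial subtypes were also called. General capillary markers numbered 8, of which Cd36, Sema3c and Scn7a fell and Gpihbp1 rose (edgeR), and their sum ranged from 7098 to 7526 CPM in controls and from 4537 to 5211 CPM in mutants. The capillary sums carry the fall of Scn7a, from 2467 ± 208 to 890 ± 196 CPM (SD, n = 3 each). The median log2 fold change of the 8 capillary markers was -0.26, with 3 above 0. Among 8 arterial markers Gja4, Efnb2, Sox17 and Cxcl12 fell and 0 rose, with sums of 1799.5 to 1869 CPM and 1029.7 to 1219.6 CPM. The arterial sums carry the fall of Cxcl12, from 501 ± 65.5 to 128 ± 43.2 CPM (SD, n = 3 each). The median log2 fold change of the 8 arterial markers was -0.39, with 2 above 0. Aerocytes are the gas-exchange capillary cells, and among their 8 markers Tbx2, Fibin and Nckap5 fell and Apln rose. Their sums overlapped at 2545 to 2810.1 CPM in controls and 2765 to 3054 CPM in mutants. These sums carry the rise of Apln, from 212 ± 21.0 to 687 ± 48.4 CPM (SD, n = 3 each). The median log2 fold change of the 8 aerocyte markers was -0.18, with 2 above 0. Among 5 tested lymphatic markers Lyve1 rose, 0 fell and 4 did not pass. The lymphatic sums were 1123 to 1377 CPM in controls and 1484 to 1532 CPM in mutants, which did not overlap. Lyve1 made up much of them, at 713 ± 50.1 CPM in controls and 968 ± 17.2 CPM in mutants (SD, n = 3 each). The median log2 fold change of the 5 lymphatic markers was -0.13, with 2 above 0. None of the 8 venous markers was called. The subtype genes are named here after their values were seen. Their part in the level of Tspan7 was not tested.

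Clec14a is a C-type lectin-like receptor of the endothelial surface, and Mmrn2, a secreted matrix protein of the EMILIN and multimerin family, is its known ligand. Clec14a (ENSMUSG00000045930.3, chromosome 12, 58264720 to 58269290, minus strand) stood at 523, 474 and 497 CPM in the controls and 368, 374 and 493 CPM in the mutants. Mutant replicates 1 and 2 were below all controls, while mutant replicate 3 lay among them, and the spread between mutants, with a coefficient of variation of 17.1%, was the widest of any member in either group. The log2 fold change was -0.27 (95% interval -0.54 to -0.01, edgeR, adjusted p = 0.324). It was -0.42 without mutant replicate 3, the fit with the lowest adjusted p (0.0569).

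Mmrn2 (ENSMUSG00000041445.9, chromosome 14, 34375465 to 34404287, plus strand) went the other way. Its level was 199, 167 and 214 CPM in the controls and 245, 263 and 228 CPM in the mutants. All 3 mutant libraries were above the controls, by a small gap between mutant replicate 3 and control replicate 3. The log2 fold change of 0.34 (SE 0.10, 95% interval 0.11 to 0.58) did not pass (edgeR, adjusted p = 0.141), nor did it in any of the 14 other fits (adjusted p from 0.102 to 0.469).

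Among 6 tested relatives of this receptor and ligand, 0 were called, with a median log2 fold change of -0.14. Thbd, thrombomodulin, the surface cofactor that turns thrombin towards anticoagulation, stood at 678 ± 45.5 and 546 ± 12.9 CPM (SD, n = 3 each; log2 fold change -0.31, edgeR adjusted p = 0.0816), and DESeq2 called it (0.0417). Cd93, another C-type lectin-like receptor that binds Mmrn2, stood at 1783 ± 133 and 1496 ± 114 CPM (adjusted p = 0.221). In both genes all mutant libraries lay below all controls.

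Emcn and Cd34 encode sialomucins of the vessel surface, and endomucin is known to hinder leukocyte attachment in capillaries and veins. Emcn (ENSMUSG00000054690.17, chromosome 3, 137341067 to 137432185, plus strand) stood at 188, 179 and 218 CPM in the controls and 216, 192 and 187 CPM in the mutants. The groups covered almost the same range, and the log2 fold change was 0.02 (95% interval -0.20 to 0.24, edgeR adjusted p = 0.942). Cd34 (ENSMUSG00000016494.9, chromosome 1, 194938819 to 194961279, plus strand) stood at 771, 719 and 859 CPM in the controls and 1016, 904 and 906 CPM in the mutants. Every mutant library was above every control, with control replicate 3 closest to them. Its log2 fold change of 0.27 (SE 0.09, 95% interval 0.06 to 0.47) did not pass (edgeR adjusted p = 0.208; 0.162 to 0.514 over the other fits). An antisense gene model, Gm16897, overlaps 2.03% of its exon bases.

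Icam2 encodes an adhesion molecule of the endothelial surface that leukocyte integrins bind. Icam2 (ENSMUSG00000001029.15, chromosome 11, 106377656 to 106388075, minus strand) stood at 234, 202 and 242 CPM in the controls and 219.6, 222 and 218 CPM in the mutants. The mutants lay inside the range of the controls, and the log2 fold change was -0.04 (95% interval -0.23 to 0.16, edgeR adjusted p = 0.894). Among 12 other tested sialomucin and leukocyte adhesion genes, 1 rose, 0 fell and 11 did not pass, with a median log2 fold change of 0.04. The gene that rose was Jam3, a junctional adhesion molecule, from 20.0 ± 1.40 to 36.9 ± 3.51 CPM (SD, n = 3 each; log2 fold change 0.88, SE 0.12, adjusted p = 0.00274), a call kept in all 14 other fits. F11r, which encodes another junctional adhesion molecule, stood at 286 ± 9.62 and 354 ± 15.9 CPM (log2 fold change 0.31, adjusted p = 0.0740), and DESeq2 called it (0.0304).

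Egfl7 encodes a secreted protein of the vessel matrix. Egfl7 (ENSMUSG00000026921.18, chromosome 2, 26580014 to 26593120, plus strand) stood at 626, 631 and 668 CPM in the controls and 590.3, 662 and 604 CPM in the mutants. The groups overlapped, and the log2 fold change was -0.05 (95% interval -0.23 to 0.13, edgeR adjusted p = 0.828). Exons of Agpat2, Gm20532, Mir126a and Mir126b cover 11.2% of its exon bases, and the use of strand in counting is not given in the sources used here, so part of its reads could be assigned otherwise. Egfl7 is the host gene of the endothelial microRNA miR-126, whose mature strand is shown with its seed in capitals because the miRNA lies inside this member.
miR-126a-3p (RefSeq, GRCm38.p6, chr2:26591402-26591423, plus strand): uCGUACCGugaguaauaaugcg
The hairpin gene Mir126a held 1.46 ± 0.776 CPM in controls and 0.876 ± 0.192 CPM in mutants (SD, n = 3 each; log2 fold change -0.70, edgeR adjusted p = 0.497). Libraries of polyadenylated RNA do not measure the mature miRNA, so this is a level of longer transcripts over the hairpin.

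Of 11 tested genes listed with Egfl7, its homolog Egfl8, Notch receptors and ligands and lysyl oxidases, 0 were called (median log2 fold change -0.04). Egfl8 stood at 11.8 ± 0.985 and 8.40 ± 0.290 CPM (adjusted p = 0.129), and the Notch ligand gene Jag2 at 174 ± 9.12 and 144 ± 7.92 CPM (adjusted p = 0.142). Both had all mutant libraries below all controls.

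Ecscr encodes a surface protein found mainly on endothelial cells and tied to their migration. Ecscr (ENSMUSG00000073599.10, chromosome 18, 35713086 to 35722356, minus strand) stood at 234, 218 and 249.8 CPM in the controls and 254, 254 and 237 CPM in the mutants. The groups overlapped (log2 fold change 0.08, 95% interval -0.10 to 0.27, edgeR adjusted p = 0.703). A gene on the opposite strand, 1700066B19Rik, overlaps 3.54% of its exon bases.

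S1pr1 encodes the main endothelial receptor for sphingosine-1-phosphate, a lipid of the blood that keeps the vessel barrier tight. S1pr1 (ENSMUSG00000045092.8, chromosome 3, 115710433 to 115715072, minus strand) stood at 416, 449 and 416 CPM in the controls and 489, 466 and 444 CPM in the mutants. Mutant replicate 3 lay below control replicate 2, so the groups overlapped (log2 fold change 0.13, 95% interval -0.06 to 0.31, edgeR adjusted p = 0.543). The pathway list held 14 other tested genes, of which 1 fell, 0 rose and 13 did not pass, with a median log2 fold change of 0.02. Sgpp2, a phosphatase that removes the phosphate from sphingosine-1-phosphate, fell from 17.6 ± 3.90 in controls to 9.06 ± 0.803 CPM in mutants (SD, n = 3 each; log2 fold change -0.96, adjusted p = 0.0166). Leaving out control replicate 2 (adjusted p = 0.0576) or mutant replicate 2 (0.114) ended this call. Plpp1, a lipid phosphate phosphatase of the cell surface, stood at 207, 148 and 202 CPM in the controls and 79.5, 96.3 and 132 CPM in the mutants (log2 fold change -0.86, adjusted p = 0.0834). DESeq2 and limma-voom called Plpp1 lower, as did edgeR without mutant replicate 3 (0.0123).

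Cav1 encodes caveolin, the coat protein of caveolae, the flask-shaped membrane pits that are dense in lung capillaries. Cav1 (ENSMUSG00000007655.16, chromosome 6, 17306335 to 17341452, plus strand) had the highest level of the set. It stood at 1118, 1102 and 1119 CPM in the controls, a spread of 0.864% of the mean, and at 1006, 825 and 941 CPM in the mutants. The 3 mutant libraries were below the 3 controls, with mutant replicate 2 lowest. The log2 fold change was -0.27 (SE 0.09, 95% interval -0.47 to -0.07) and did not pass (edgeR adjusted p = 0.180; 0.123 to 0.543 over the 14 other fits). Alveolar type 1 cells also make Cav1, and the summed level of their 8 markers was 1398 to 2521 CPM in controls and 1564 to 2089 CPM in mutants, with 0 of 8 called. The part of these cells in the level of Cav1 was not tested.

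The other caveola genes did not share one direction. None of the 11 tested was called in either direction, with a median log2 fold change of 0.07. Cav2, the partner of caveolin in the coat, stood at 323, 278 and 297 CPM in the controls and 241, 156 and 249.01 CPM in the mutants (log2 fold change -0.48, adjusted p = 0.234; named here after its values were seen). It lay below all controls in all 3 mutants and, like Cav1, was lowest in mutant replicate 2. Cavin1 and Cavin3, adaptor proteins of the caveola coat, lay above all controls in all 3 mutants, with log2 fold changes of 0.36 and 0.57 (adjusted p = 0.0747 and 0.0539). DESeq2 called both higher (0.0282 and 0.00653). Without mutant replicate 3 edgeR called Cavin1 too (0.0386), and Cavin3 passed when control replicate 1 was left out (0.0485) or low counts were kept (0.0259).

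**Figure D3:**
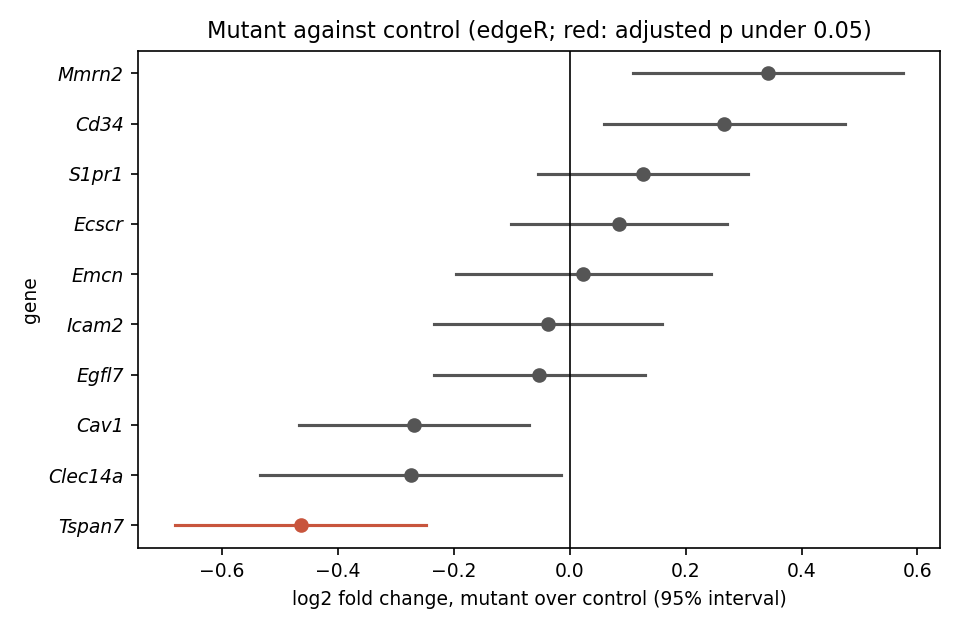
The horizontal axis gives the log2 fold change, mutant over control, of each of the 10 genes with its 95% interval from the edgeR fit of all 6 libraries. The interval of Tspan7, in red, runs from -0.68 to -0.25, and those of Cav1, Clec14a, Cd34 and Mmrn2 also lie to one side of 0 although their adjusted p did not pass.

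Outside the 10 genes, other pan-endothelial genes held more calls. In edgeR 5 of the 26 tested fell, 1 rose and 20 did not pass, with a median log2 fold change of -0.10. Their summed level was 19695 to 21538 CPM in controls and 18052 to 18934 CPM in mutants, which did not overlap. Calcrl carried much of that difference, and 12 of the 26 had a log2 fold change above 0. Calcrl, the receptor subunit for adrenomedullin, fell from 1644 ± 111 to 699 ± 213 CPM, and Cyyr1, a membrane protein gene, fell from 232 ± 9.20 to 107 ± 21.5 CPM (SD, n = 3 each; adjusted p = 0.0270 and 0.00264). Tek, the angiopoietin receptor, and Flt1, VEGF receptor 1, fell by 0.50 and 0.40 on the log2 scale, and Sox17, an endothelial transcription factor, fell by 0.34 (adjusted p = 0.0128, 0.0337 and 0.0426). Robo4, an endothelial guidance receptor, rose from 302 ± 20.7 CPM in controls to 407 ± 25.0 CPM in mutants, by 0.43 on the log2 scale (adjusted p = 0.0263). Flt1 and Sox17 were named after their values were seen.

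Of these 6 calls, that of Cyyr1 was kept in all 14 other fits. The number that fell, 5, was 3, 2 or 1 when control replicate 1, 2 or 3 was left out, and 2, 2 or 3 when mutant replicate 1, 2 or 3 was. With sex as a covariate it was 3, and the calls of Flt1 (0.0591) and Sox17 (0.0874) ended there. That of Tek ended without control replicate 3 (0.0540) or mutant replicate 2 (0.0760), and that of Calcrl with no low-count filter (0.0714) and in 4 of the 6 fits without a library, those that left out control replicate 1, 2 or 3 or mutant replicate 1 (0.0726 to 0.113). The call of Sox17 was lost in all 6 fits without a library (0.0658 to 0.160), that of Flt1 in all of them but the one without control replicate 1 (up to 0.162), and that of Robo4 in those without control replicates 1 and 3 and mutant replicates 1 and 2 (0.0697 to 0.127).

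Over all partner lists together, 100 genes apart from the 10 were tested, of which 2 rose, 6 fell and 92 did not pass. That is 8% called, against 3.27% of all tested genes, and their median log2 fold change was -0.01. These lists were chosen with earlier results of these data known, so the share is a description.

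**Figure D4:**
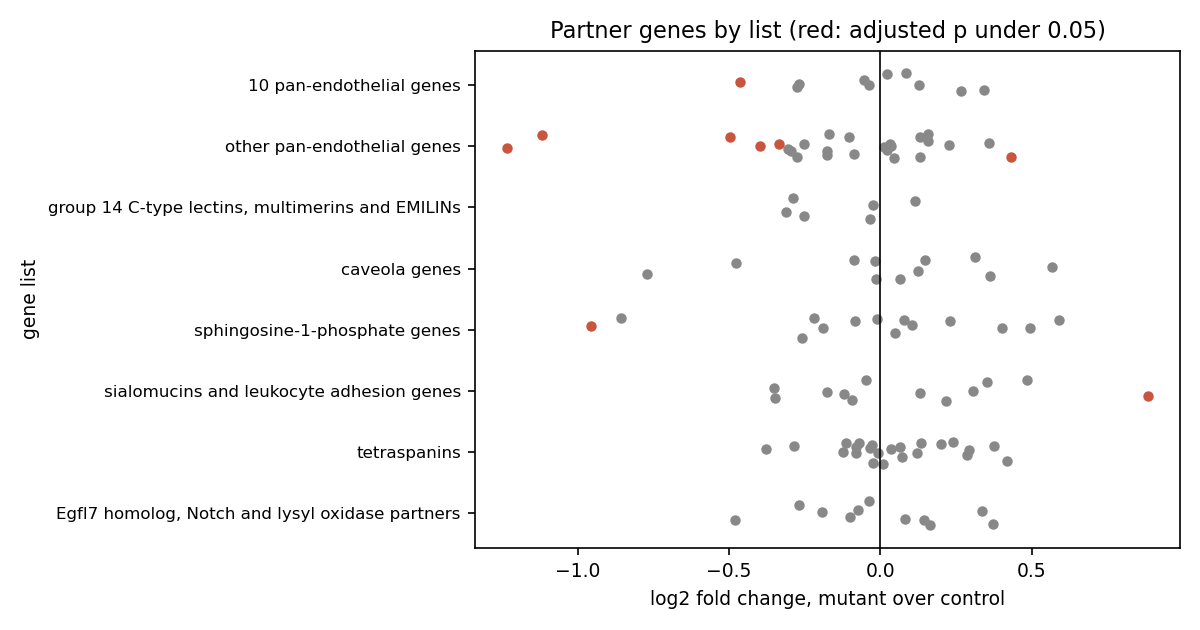
Each point is a tested gene, placed by its log2 fold change, mutant over control, within the list named at the left, with members of the set left out of the other lists and height within a row random. Red points passed an adjusted p of 0.05: 1 of the 10 pan-endothelial genes, 6 of the 26 other pan-endothelial genes, Sgpp2 and Jam3.

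Between genes, levels were compared as CPM per kilobase of merged exon length. In controls Cav1 was highest, at 323 ± 2.79 CPM per kilobase, then Egfl7 at 179 ± 6.37 and S1pr1 at 140.2 ± 6.34 CPM per kilobase (SD, n = 3 each). S1pr1 overlapped in range with Ecscr, the next in order. Ecscr, Icam2 and Clec14a each overlapped the one that followed, down to Cd34 at 107 ± 9.71 CPM per kilobase. Tspan7 followed at 84.9 ± 8.22, Mmrn2 at 48.7 ± 6.01 and Emcn at 36.1 ± 3.77 CPM per kilobase, each apart from its neighbours in the order. In mutants Tspan7, at 61.5 ± 4.26, and Mmrn2, at 61.8 ± 4.42 CPM per kilobase, overlapped, and Cd34, at 129 ± 8.82, stood above Icam2 and Clec14a. The order depends on which exons are counted. Divided by the longest annotated transcript, Cd34 stood at 256, Ecscr at 209.9 and Icam2 at 176 CPM per kilobase in controls, all above S1pr1 at 140.2 CPM per kilobase, and Emcn at 55.5 CPM per kilobase stood above Mmrn2 at 48.7.

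Set against Pecam1 in the same library, Tspan7 stood at 0.402, 0.361 and 0.382 of its CPM in the controls and at 0.260, 0.230 and 0.269 in the mutants. The ratios of Tspan7 did not overlap between the groups either. Against Pecam1, 5 of the 10 genes were lower in every mutant than in every control (Tspan7, Icam2, Clec14a, Egfl7 and Cav1), 2 were higher (Cd34 and Mmrn2) and 3 overlapped. Over the 14933 tested genes apart from Pecam1, 26.1% had ratios to Pecam1 that did not overlap, 21.4% lower and 4.66% higher. Pecam1 itself was above the controls in every mutant library, so these ratios carry that difference too. The ratio of Cav1 to Pecam1 was 0.712, 0.745 and 0.674 in controls and 0.590, 0.473 and 0.551 in mutants.

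The libraries differed in a way that the groups do not explain. Within the controls, replicate 2 had the lowest level of 8 of the 10 genes and replicate 3 the highest of 8. Among all libraries, control replicate 2 had the fewest assigned reads (14093564) and the highest share of reads with no feature (58.2%). The part of these in its levels was not tested. Control replicate 3 also had the lowest summed level of fibroblast markers (1143 CPM, against 1669 and 1759 in control replicates 1 and 2) and of alveolar type 2 markers (1848 CPM, against 3934 and 3224). Relative to the control means, the average of the 10 log2 levels was 0.01, -0.09 and 0.08 for the controls and 0.003, -0.05 and -0.03 for the mutants. All these averages lie within 0.1 of 0. Among 6709 genes whose average log2 CPM was 5 or more, the 5 whose levels ran most like this average over the 6 libraries were E2f6, Yaf2, Btbd1, Dcaf1 and Pitpna, with Pearson r from 0.956 to 0.994, a description over 6 libraries of one fit.

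Markers of other lung cells were present in all libraries at levels that overlapped between groups in 9 of 11 lists. In 11 lists with 88 tested markers, 0 rose and 0 fell in edgeR. Alveolar type 2 markers summed to 1848 to 3934 CPM in controls and 2640.4 to 2838 CPM in mutants, led by the surfactant gene Sftpc. Fibroblast markers summed to 1143 to 1759 CPM and 1349 to 2028 CPM, led by the collagen gene Col3a1. Smooth muscle and pericyte markers summed to 285 to 427 CPM and 414 to 533 CPM, led by Acta2. Of these 12 markers 9 had a log2 fold change above 0. Rgs5, named after its values were seen, was higher in every mutant than in every control. It stood at 44.0, 41.7 and 29.1 CPM in controls and 69.9, 60.5 and 107 CPM in mutants (log2 fold change 1.05, edgeR adjusted p = 0.078). The macrophage sum was 816 to 979.7 CPM and 832 to 866 CPM. The 2 lists without overlap were the lymphocyte and the erythroid markers. Lymphocyte sums were 168 to 188 CPM in controls and 199.01 to 263 CPM in mutants. Of 10 tested lymphocyte markers 4 had a log2 fold change above 0. Among these, Ms4a1, Cd79a and Cd79b, named after their values were seen, were higher in every mutant than in every control (edgeR adjusted p = 0.107, 0.0959 and 0.107). Erythroid sums were above 11.3 CPM in every control and at 8.13 to 11.3 CPM in mutants. Of the 7 erythroid markers the 4 globin genes were listed at 0 in every library, while Alas2 had 10.0 ± 0.255 CPM in controls and 7.09 ± 1.13 CPM in mutants. The summed level of the 10 pan-endothelial genes was above each of these lists in every library. Such sums depend on which genes and how many are listed, so their order is no measure of cell content.

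**Figure D5:**
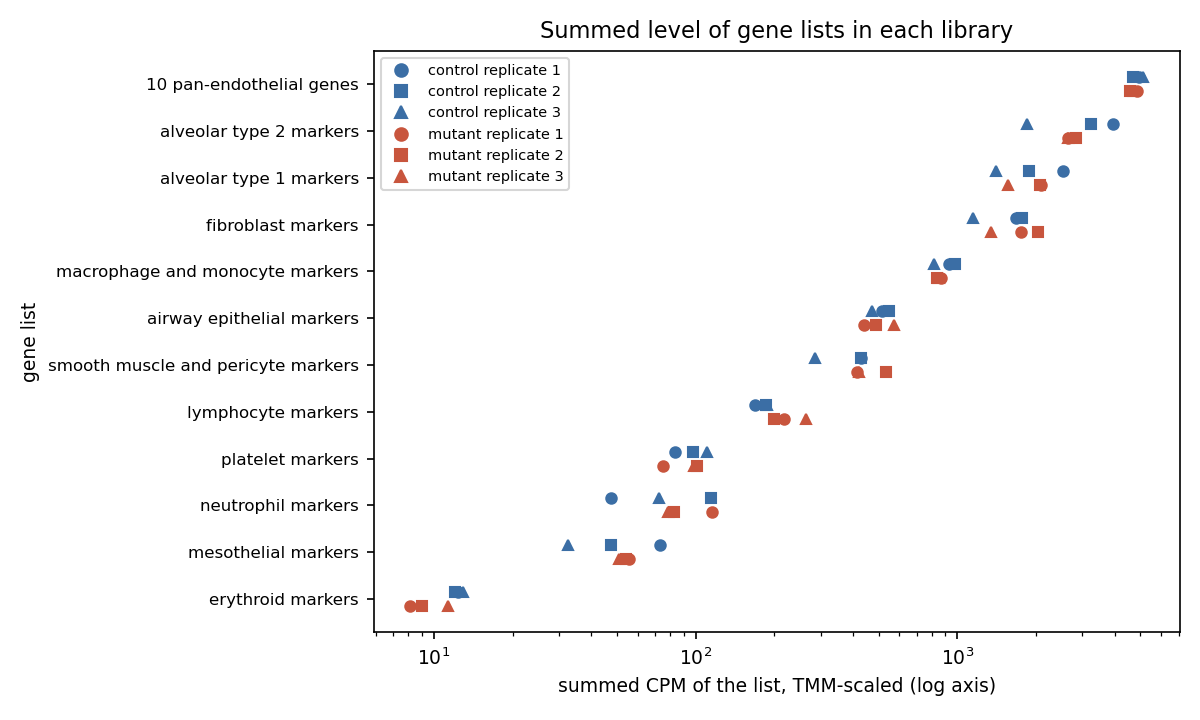
The horizontal axis gives the summed TMM-scaled CPM, on a log axis, of the 10 pan-endothelial genes and of 11 marker lists of other cell types, with control libraries in blue and mutant libraries in red. The 10 pan-endothelial genes, at 4563 to 5118 CPM, stand above the other-cell lists plotted and span the narrowest range of the plot on its log axis. The height of a list depends on the genes it holds and is no measure of cell content. Control replicate 3 is the lowest control for alveolar, fibroblast and smooth muscle markers.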

How the data were processed

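Polyadenylated RNA of CD31-selected lung cells from 3 control and 3 mutant pups was measured. The authors deposited raw read counts, as whole numbers for each gene symbol, and had not normalized them. The series table and the files per library differed in 0 values. The submitters' processing notes name mm10 and DESeq2, with no version. None of the sources used here gives the aligner, the read counter, the annotation or the strand setting. Reads with no feature, 53.9% to 58.2% of a library (95% exact Clopper-Pearson intervals within 0.0166 percentage points, counting error only), and ambiguous reads, 0.288% to 0.366%, were left out.

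Counts were fitted in R 4.3.3 with edgeR 4.0.16: filterByExpr by group, TMM factors, robust quasi-likelihood fits and the two-sided F test of mutant against control, with Benjamini-Hochberg adjustment over 14934 genes. The SE was the log2 fold change over the square root of F. Replicate pairs differed by more than sampling noise (chi-square per degree of freedom at least 12.3). Alternatives were RLE, upper-quartile and no scaling factors, no low-count filter, DESeq2 1.42.0, limma-voom (limma 3.58.1), a replicate block, each library left out, longest transcript lengths and, added after the data were seen, sex as a covariate. Exon lengths and coordinates, looked up by symbol, came from GENCODE M21 on GRCm38, which is the assembly behind mm10. The fit was tested on simulated counts.

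The members and lists were chosen with earlier results of these data known. Named beside the members were Smad4, Pecam1, up to 4 called genes with the smallest p of each partner list (the 2 with the smallest p where fewer than 2 were called), leading markers of other cells and the 5 genes most like the members.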

Additional observations from a re-analysis of the deposited data

How the results depend on the processing

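Against 488 called genes (288 higher, 200 lower), DESeq2 called 747 (445 and 302), and leaving out 1 library gave 211 to 428 (131 to 257 higher, 80 to 204 lower), lowest without mutant replicate 2. The pan-endothelial count of 1 lower and 0 higher was 1 and 0 in the 8 other fits of all 6 libraries, and 0 to 1 lower with a library left out. Partner genes called were 8 (2 higher, 6 lower), and 15 in DESeq2 (6 higher). With no low-count filter 4 were higher. With a library left out the counts were 3 to 9 (1 to 4 higher, 2 to 5 lower). The sign of Emcn turned, with log2 fold changes of -0.047 to 0.11, and that of Icam2, with -0.11 to 0.015, over the fits without a library, and neither was called in any. No other member changed sign. With longest transcripts, control means in CPM per kilobase moved to 55.5 for Emcn, 176 for Icam2, 344 for Egfl7, 256 for Cd34, 209.9 for Ecscr and 405 for Cav1. With the replicate block 466 genes were called and Tspan7 stayed called (adjusted p = 0.0240), and 3 other pan-endothelial genes fell, without the calls of Flt1 (0.0640) and Sox17 (0.108). Plpp1 was called lower there. Deviations of same-numbered libraries had r of 0.07, 0.04 and 0.27, so the numbers were not taken as pairs, and 2 of 3 mutants correlated best with the control of their own number. The median log2 fold change of all genes moved by less than 0.1 under every setting. The members had counts of at least 2351 in every library, and what limits their calls was not tested. The fits with a library left out had 2 samples in 1 group.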
